A study of Mus musculus with 6 samples.

Results

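Condensin, cohesin, the centromere and the kinetochore are the machinery that folds, holds together and pulls apart chromosomes. The RNA of their genes was measured in B16.F10, a line of mouse melanoma cells labelled as wild type, that had been given 3.5 µM simvastatin for 24 h or had been left untreated. Simvastatin blocks the enzyme that makes mevalonate, the precursor of cholesterol and of the lipid anchors of small GTPases, and the labels give this concentration as the inhibitory one that earlier work of the submitters had found for these cells. There were 3 samples in each group, biological replicates by the wording of the series, and all 6 share 1 batch label. Members were chosen by gene symbol alone (SMC, NCAP, CENP, STAG, PDS5, MIS12, MIS18 and CDCA names, with Ndc80, Nuf2, Spc24, Spc25, Knl1 and Incenp), which gave 42 of the 8513 measured genes and 75 of the 15905 transcripts. A further 15 names of the lists, Nipbl among them, had no values among those used here, so the lists are incomplete. The symbols were sorted by known role into 8 condensin, 7 cohesin, 1 SMC5/6, 11 inner centromere, 8 outer kinetochore and 2 passenger complex genes, and 5 genes that belong to none of these and carry only the name.

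Condensin is a ring of the ATPases SMC2 and SMC4, closed by either of 2 sets of non-SMC subunits. Condensin I (NCAPD2, NCAPG, NCAPH) reaches the chromosomes when the nuclear envelope breaks down, while condensin II (NCAPD3, NCAPG2, NCAPH2) is nuclear throughout the cycle. Cohesin, built on SMC1A and SMC3, holds sister chromatids together and shapes loops in interphase, so that it is needed outside mitosis too. Centromeric nucleosomes carry the histone variant CENP-A, on which inner proteins assemble, and the outer kinetochore, with the NDC80 complex, grips microtubules. Many genes of mitosis are transcribed mainly in G2 and M phase, through promoters that hold a cell cycle genes homology region (CHR, bound by MuvB complexes) and CCAAT boxes bound by NF-Y, while E2F sites are typical of genes of the G1 to S transition.

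The promoters of 6 members are shown because the results turn on these genes: both genes that fell, the gene of which a transcript fell, a shared condensin subunit, a passenger complex subunit, and Smc3 of cohesin, which has no match to the motifs marked. Each sequence runs 5′ to 3′ on the gene's strand from 200 bases before to 30 after the RefSeq start site in GRCm38.p6, and capitals mark TTTGAA (the CHR core), CCAAT (the NF-Y box), TTCCCGC and TTGGCGC (E2F cores), each on either strand. The windows are chr6:125191557-125191786 on the minus strand for Ncapd2, chr5:45669725-45669954 on the plus strand for Ncapg, chr12:116405236-116405465 on the plus strand for Ncapg2, chr4:52439021-52439250 on the plus strand for Smc2, chr4:124936888-124937117 on the minus strand for Cdca8 and chr19:53600196-53600425 on the plus strand for Smc3.
Ncapd2: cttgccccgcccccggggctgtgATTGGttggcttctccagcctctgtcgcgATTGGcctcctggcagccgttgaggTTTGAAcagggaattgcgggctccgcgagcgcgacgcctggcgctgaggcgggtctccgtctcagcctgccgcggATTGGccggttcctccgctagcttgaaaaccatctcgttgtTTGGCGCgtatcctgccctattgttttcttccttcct
Ncapg: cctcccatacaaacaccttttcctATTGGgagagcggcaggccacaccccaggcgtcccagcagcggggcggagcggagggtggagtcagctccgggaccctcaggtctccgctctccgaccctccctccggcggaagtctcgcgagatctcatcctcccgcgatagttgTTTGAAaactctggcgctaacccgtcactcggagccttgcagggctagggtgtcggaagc
Ncapg2: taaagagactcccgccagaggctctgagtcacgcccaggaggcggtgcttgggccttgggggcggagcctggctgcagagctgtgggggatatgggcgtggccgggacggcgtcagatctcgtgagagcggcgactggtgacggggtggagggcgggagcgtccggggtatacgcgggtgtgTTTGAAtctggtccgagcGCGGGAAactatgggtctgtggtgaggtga
Smc2: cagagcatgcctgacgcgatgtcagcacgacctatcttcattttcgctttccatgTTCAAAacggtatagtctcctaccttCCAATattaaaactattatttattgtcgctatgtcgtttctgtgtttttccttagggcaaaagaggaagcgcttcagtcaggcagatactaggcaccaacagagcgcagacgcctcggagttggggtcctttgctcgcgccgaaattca
Cdca8: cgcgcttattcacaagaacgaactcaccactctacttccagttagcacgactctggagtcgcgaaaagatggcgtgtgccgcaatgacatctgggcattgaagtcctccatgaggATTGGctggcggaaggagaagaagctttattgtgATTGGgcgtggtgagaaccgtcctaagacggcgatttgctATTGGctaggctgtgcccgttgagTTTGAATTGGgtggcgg
Smc3: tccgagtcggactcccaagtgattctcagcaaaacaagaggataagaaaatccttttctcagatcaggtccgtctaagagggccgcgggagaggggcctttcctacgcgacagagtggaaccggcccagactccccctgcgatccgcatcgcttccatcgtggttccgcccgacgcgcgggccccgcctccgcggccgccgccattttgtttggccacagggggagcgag

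For each transcript there was 1 value per group and none per sample, so no spread between samples could be computed and the depth is unknown. No source used here gives the unit of these values, and levels are therefore not compared between genes. Sums over a gene's transcripts, shares of them and the choice of its most abundant transcript assume comparable values within a gene. This could not be checked. All values summed to 344210 with simvastatin and 394749 in control, and scaling the groups to 1 total adds 0.20 to each log2 fold change, which takes the median over all genes to 0.21 from 0.01. All 7 melanocyte markers looked up were measured in both groups, with the pigment enzyme gene Dct at 3306.37 with simvastatin and 2207.74 in control in the authors' deposited table, and 0 of the 7 passed an adjusted p of 0.05. RNA came from whole cultures, so fewer cells in G2 and mitosis and less RNA per cell cannot be told apart in any result that follows.

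The comparison of simvastatin with untreated cells showed lower values for most of these genes. By each gene's leading transcript, the one of highest mean value over both groups, 38 of 42 members (90.5%) had the lower value in simvastatin cells, against 48.7% of all 8513 genes, although 3 of the 38 (Cenpv, Cenpx and Pds5a) turned to the higher side when the groups were scaled to 1 total, leaving 35 lower (83.3%, against 36.1% of all genes with a fold). The median log2 fold change of the members was -0.77 and that of all genes 0.01. Summing a gene's transcripts left 40 members lower and 2 higher, with a median of -0.70. The 4 members on the higher side by their most abundant transcript were Ncapd3, Stag2, Smc6 and Knl1, none of them past the test.

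Few single members passed the strict test. By the authors' deposited adjusted p, 2 members passed 0.05 with a lower value, Ncapd2 and Ncapg (4.76% of members, where 1.39% of all genes were called lower), and 0 had a higher one (1.76% of all genes). Counting any transcript of a gene added Ncapg2, for 3 members (7.14%, against 1.81% of all genes), and by transcript 3 of 75 were called lower (4%, against 0.987% of all transcripts). At an adjusted p under 0.1 there were 11 lower members (26.2%, against 5.67%), and 6 of the 42 lay between 0.05 and 0.06, as did 111 of all genes on the lower side: Smc4, Cdca7, Smc2, Ndc80, Spc25 and Cdca5. Without adjustment 20 members had a p under 0.05 and a lower value (47.6%, against 14.9%), and 0 had a higher one (1160 of all 8513 genes).

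The authors' own call, which reaches an adjusted p of 0.2 and asks for a fold of at least 1.5, took in 19 members as lower (45.2%, against 5.5% of all genes) and 0 as higher (6.91% of all genes). By transcript it took in 22 of 75 as lower (29.3%, against 4.37%). These 19 genes, with folds of at least 1.57 and adjusted p of up to 0.184 in the authors' deposited table, span every complex but SMC5/6. They are 5 of 8 condensin genes (Ncapd2, Ncapg, Ncapg2, Smc2, Smc4), 1 of 7 cohesin genes (Cdca5), 4 of 11 inner centromere genes (Cenpa, Cenpi, Cenpq, Cenpw), 5 of 8 outer kinetochore genes (Cenpe, Cenpf, Ndc80, Spc24, Spc25), 1 of 2 passenger complex genes (Cdca8) and 3 of the 5 others (Cdca2, Cdca4, Cdca7). The plot of summed values shows the 2 groups gene by gene.

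**Figure D1:**
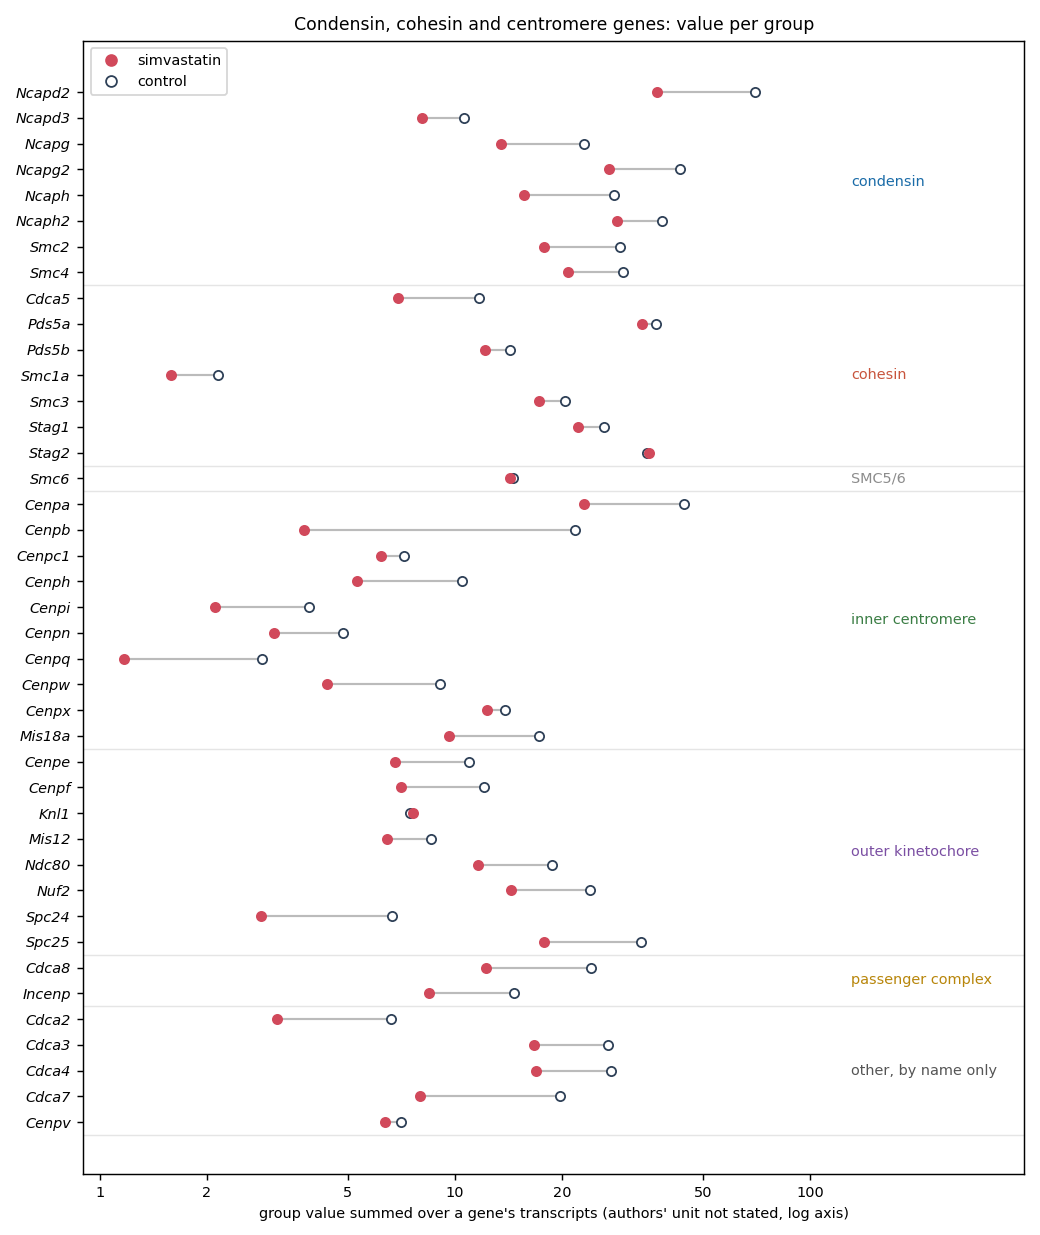
Value of each of 41 genes, summed over its transcripts, in simvastatin cells (filled) and control cells (open), on a log axis in the authors' unit, which is not stated; each point is 1 value per group with no error. The filled point lies left of the open one for 39 genes, and to the right for Stag2 and Knl1, by a small distance.

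By its median, the shift was smallest for cohesin among the 4 larger lists. The median log2 fold change of the most abundant transcripts was -0.74 over 8 condensin genes, -0.29 over 7 cohesin genes, -0.87 over 11 inner centromere genes and -0.74 over 8 outer kinetochore genes. With gene sums the medians were -0.69, -0.24, -0.88 and -0.72 for the same lists in that order. Cohesin had the median nearest to 0 of these 4 lists under each of the 6 settings run, and its size depended most on them. The cohesin median was -0.44 with Ensembl transcripts only. It was -0.09 after scaling to 1 total, which also took the median over all genes to 0.21 from 0.01. With 1 value per group, the difference between lists could not be tested. The plot by complex shows where single genes depart from their list.

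**Figure D2:**
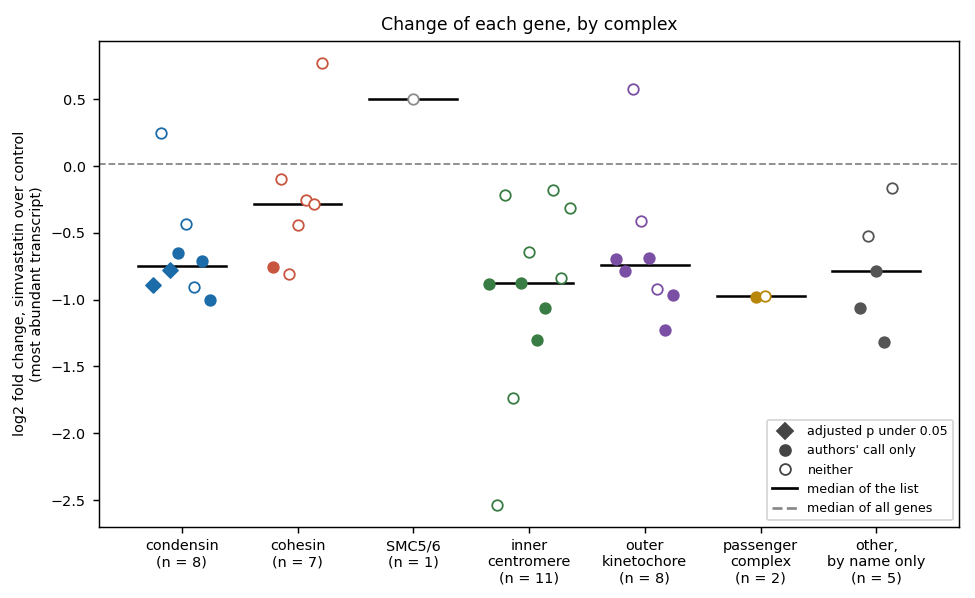
Log2 fold change (simvastatin over control) of the most abundant transcript of each gene, by complex, with the median of each list (black line) and of all genes (dashed). Diamonds are the 2 genes with an adjusted p under 0.05, filled circles the other genes in the authors' call and open circles the rest; cohesin has a median of -0.29 and 1 filled circle, while condensin and the outer kinetochore have medians of -0.74 and 5 genes in the authors' call each.

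Condensin held both members that fell. Of its 8 genes, 7 had the lower value by most abundant transcript and all 8 by gene sum, 2 passed the test downward and 0 upward. Ncapd2 (ENSMUSG00000038252, chromosome 6, 125168007 to 125191701 in GRCm38), the HEAT repeat subunit of condensin I, had 26.8 in simvastatin cells and 49.56 in control cells for its leading transcript in the authors' deposited table, and fell 1.85-fold (adjusted p = 0.042). That transcript is a model assembled from reads. A retained intron transcript of the gene, with 10.17 in simvastatin cells and 20.24 in control cells in the authors' deposited table, was 1.99-fold lower without passing (adjusted p = 0.361). With Ensembl transcripts only, the gene is therefore not called, although both transcripts point the same way and their sum was 36.97 with simvastatin and 69.8 in control.

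Ncapg (ENSMUSG00000015880, chromosome 5, 45669919 to 45700546), the other HEAT repeat subunit of condensin I, has 1 transcript, which is protein coding. It had 13.5 in simvastatin cells and 23.12 in control cells in the authors' deposited table and fell 1.71-fold (adjusted p = 0.042). Ncaph, the kleisin that closes the condensin I ring, had 11.96 and 16.15 for its most abundant transcript with simvastatin and in control (adjusted p = 0.908 in the authors' deposited table). Its other transcripts stood lower too, at 3.4 against 6.54 and at 0.29 against 5.41 with simvastatin against control in the authors' deposited table, so that the gene sum was 15.65 with simvastatin and 28.1 in control. All 3 genes of condensin I thus had the lower value in treated cells, and their median log2 fold change was -0.77, or -0.84 with gene sums.

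Among the genes of condensin II, a transcript of Ncapg2 fell. This gene (chromosome 12, 116405402 to 116463731) had 15.32 with simvastatin and 24.01 in control for its protein coding transcript in the authors' deposited table, 1.57-fold lower (adjusted p = 0.077). Its retained intron transcript of 2 exons had 11.87 with simvastatin and 18.91 in control in the authors' deposited table and fell 1.59-fold (adjusted p = 0.042). Both values were lower by nearly the same factor, on different sides of the threshold. Ncaph2, the condensin II kleisin, had 13.39 with simvastatin and 25.1 in control for a coding transcript (adjusted p = 0.762 in the authors' deposited table). A transcript of Ncaph2 annotated to nonsense-mediated decay, the pathway that destroys RNAs with early stop codons, lay on the higher side, with 12.3 with simvastatin and 8.66 in control in the authors' deposited table. Ncapd3 had 5.44 with simvastatin and 4.57 in control for its leading transcript (adjusted p = 0.816 in the authors' deposited table). The Ncapd3 sum of 8.07 with simvastatin and 10.57 in control has the opposite sign, because an assembled transcript is listed at 0 with simvastatin and at 3.07 in control. Over these 3 genes the median was -0.65, or -0.41 with gene sums, which lies nearer to 0 than that of condensin I; this difference could not be tested.

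The shared ATPase genes lay just outside the threshold. Smc2 (chromosome 4, 52439243 to 52488260) had 17.76 with simvastatin and 29.13 in control in the authors' deposited table, 1.64-fold lower (adjusted p = 0.053). Smc4 (chromosome 3, 69004738 to 69034623) had 10.41 with simvastatin and 20.77 in control in the authors' deposited table for its most abundant transcript, 2-fold lower with an adjusted p printed as 0.05. That transcript is annotated to nonsense-mediated decay, and it made up 50% of the gene's summed value with simvastatin and 70.1% in control. The protein coding transcript of Smc4 lay on the higher side, with 6.12 with simvastatin and 2.3 in control (adjusted p = 0.74 in the authors' deposited table), or 29.4% and 7.77% of the sum. The Smc4 sum was 20.84 with simvastatin and 29.61 in control, 1.42-fold lower, a smaller difference than that of the transcript nearest to the threshold.

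In the cohesin list most folds were small. Of 7 genes, 6 had the lower value, with Pds5a turning to the higher side after scaling to 1 total, 0 passed the test in either direction, and 1 was in the authors' call. Cdca5 encodes sororin, which protects cohesin on replicated chromatids from release until mitosis, so that it acts from replication onward. Its values were 6.91 with simvastatin and 11.69 in control in the authors' deposited table, 1.69-fold lower (adjusted p = 0.057). Without Cdca5 the median of the other 6 cohesin genes was -0.27. Rad21, the kleisin gene of the cohesin ring, lies outside this list by its name and is given with the partners below. It did pass the test, 1.23-fold lower (adjusted p = 0.037 in the authors' deposited table).

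The other ring subunits and regulators were not in the authors' call. Smc3 had 17.2 with simvastatin and 20.39 in control in the authors' deposited table, 1.19-fold lower, with a p of 0.023 that did not pass after adjustment (0.171). Smc1a had 1.59 with simvastatin and 2.16 in control for its 1 listed transcript, annotated to nonsense-mediated decay (adjusted p = 0.681 in the authors' deposited table). The HEAT repeat subunit gene Stag1 had 19.33 with simvastatin and 23.55 in control (adjusted p = 0.579 in the authors' deposited table). Each of these 3 differences is below 1.5-fold.

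Stag2, the paralogous subunit that forms the other kind of cohesin, had the largest upward fold of a leading transcript among the members, with 22.64 in simvastatin cells and 13.25 in control cells for an assembled transcript in the authors' deposited table (1.71-fold, adjusted p = 0.54). A second assembled transcript of Stag2 had 10.77 with simvastatin and 15.74 in control, and the protein coding one 1.65 and 5.61, in the authors' deposited table. The Stag2 sum was 35.06 with simvastatin and 34.6 in control, nearly equal, so the upward fold belongs to 1 transcript and not to the gene total. Of the PDS5 proteins, which dock the factors that release or lock cohesin, Pds5a had 25.86 with simvastatin and 27.8 in control (adjusted p = 0.97 in the authors' deposited table). Pds5b had 5.5 with simvastatin and 9.61 in control for 1 coding transcript and 6.68 and 4.71 for another (adjusted p = 0.894 for the first in the authors' deposited table), which sums to 12.18 with simvastatin and 14.32 in control.

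SMC5/6, the third SMC complex, which works in DNA repair and replication, was represented by Smc6 alone. Its transcript annotated to nonsense-mediated decay had 13.86 with simvastatin and 9.79 in control (adjusted p = 0.825 in the authors' deposited table), and its coding transcript 0.41 and 4.79 (adjusted p = 0.658). The sum was 14.27 with simvastatin and 14.58 in control. The share of the decay transcript was 97.1% with simvastatin and 67.1% in control, in a gene whose total hardly differed between the groups.

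All 11 inner centromere genes had the lower value in simvastatin cells, with Cenpx turning to the higher side after scaling to 1 total, and 0 of them passed the test. Cenpa, which encodes the centromeric histone H3 variant, was listed with 4 transcripts, each with the lower value. The most abundant, annotated to nonsense-mediated decay, had 11.82 with simvastatin and 21.79 in control in the authors' deposited table, 1.84-fold lower (adjusted p = 0.14). Its protein coding transcript had 6.12 with simvastatin and 14.61 in control in the authors' deposited table, 2.39-fold lower (adjusted p = 0.178). The Cenpa sum was 22.99 with simvastatin and 43.95 in control, 1.91-fold lower. Mis18a, whose protein helps to license its deposition, had 9.62 with simvastatin and 17.2 in control (adjusted p = 0.334 in the authors' deposited table).

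The largest fold of a leading transcript among the members was that of Cenpb, whose protein binds a short motif of centromeric satellite DNA. Cenpb had 3.75 with simvastatin and 21.75 in control in the authors' deposited table, 5.79-fold lower, with a p of 0.314 and an adjusted p of 0.624. This fold missed the test even without adjustment, and how the samples behind it spread is not known here. Cenpc1, the scaffold between the CENP-A nucleosome and the kinetochore, had 6.19 with simvastatin and 7.18 in control (adjusted p = 0.607 in the authors' deposited table).

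Among the further subunits of the constitutive centromere network, 3 were in the authors' call. Cenpq had 1.17 with simvastatin and 2.87 in control (2.46-fold lower, adjusted p = 0.155), Cenpw 4.35 and 9.09 (2.09-fold lower, adjusted p = 0.129) and Cenpi 2.11 and 3.88 (1.83-fold lower, adjusted p = 0.184) in the authors' deposited table. Cenpn, whose product reads the CENP-A nucleosome, had 3.1 with simvastatin and 4.84 in control (adjusted p = 0.306 in the authors' deposited table). Cenph had 2.5 with simvastatin and 8.31 in control for an assembled transcript and 2.8 and 2.12 for the coding one (adjusted p = 0.369 and 0.912 in the authors' deposited table). Cenpx, which also serves in the Fanconi anaemia pathway of DNA repair, had 12.28 with simvastatin and 13.84 in control (adjusted p = 0.922 in the authors' deposited table). Cenpc1 and Cenpx thus both lay within 1.5-fold of control.

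In the outer kinetochore 7 of 8 genes had the lower value and 0 passed the test. The 4 genes of the NDC80 complex, the microtubule grip, had a median log2 fold change of -0.94. Spc25 had 11.32 with simvastatin and 22.03 in control for its leading transcript in the authors' deposited table (1.95-fold lower, adjusted p = 0.054), and 17.85 and 33.44 as a gene sum. Ndc80 itself had 11.62 with simvastatin and 18.76 in control (1.61-fold lower, adjusted p = 0.054), and Spc24 had 2.84 and 6.64 (2.34-fold lower, adjusted p = 0.139) in the authors' deposited table. Nuf2, the partner of Ndc80 in the head of the complex, had 6.86 with simvastatin and 12.94 in control for 1 transcript and 7.49 and 11 for the other (adjusted p = 0.391 and 0.532 in the authors' deposited table). All 4 subunits, and all 6 of their transcripts, were on the lower side.

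The motor and corona genes were near these. Cenpe, a kinesin that carries chromosomes to the spindle equator, had 6.79 with simvastatin and 10.98 in control in the authors' deposited table (1.62-fold lower, adjusted p = 0.078). Cenpf, a large coiled coil protein of the outer kinetochore, had 7.04 with simvastatin and 12.09 in control in the authors' deposited table (1.72-fold lower, adjusted p = 0.154). Of the 2 members from the platform that recruits the NDC80 complex, neither was in the authors' call: Mis12 had 6.42 and 8.56 with simvastatin and in control (adjusted p = 0.945), and Knl1, the dock of the BUB checkpoint proteins, had 5.04 and 3.38 (adjusted p = 0.728) in the authors' deposited table. Pmf1, a platform gene outside the members by its name, was in that call. It had 28.17 with simvastatin and 54.57 in control in the authors' deposited table (1.94-fold lower, adjusted p = 0.052). The Knl1 sum over 3 transcripts was 7.61 with simvastatin and 7.48 in control.

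The chromosomal passenger complex corrects faulty attachments through the kinase Aurora B. Cdca8 encodes its subunit borealin and had 12.25 with simvastatin and 24.11 in control in the authors' deposited table (1.97-fold lower, adjusted p = 0.067). Incenp, the scaffold, had 3.65 with simvastatin and 7.17 in control for its leading transcript in the authors' deposited table, a fold of 1.96 with an adjusted p of 0.8. These 2 genes show nearly the same fold at very different p-values; Cdca8 is listed with 1 transcript and Incenp with 3.

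The 5 genes that only share the name were also on the lower side, with Cenpv turning to the higher one after scaling to 1 total. Cdca7, a chromatin protein that recruits the remodeler HELLS, had 7.95 with simvastatin and 19.78 in control in the authors' deposited table, 2.49-fold lower (adjusted p = 0.052), and Hells itself 10.9 and 20.27 (1.86-fold lower, adjusted p = 0.054). Cdca2, which targets protein phosphatase PP1 to chromosomes at mitotic exit, had 3.16 with simvastatin and 6.62 in control in the authors' deposited table (2.09-fold lower, adjusted p = 0.181). Cdca4 had 12.73 and 21.95 with simvastatin and in control for its leading transcript in the authors' deposited table (1.72-fold lower, adjusted p = 0.133). Cdca3 had 6.72 with simvastatin and 9.66 in control, and Cenpv 6.34 and 7.06 (adjusted p = 0.46 and 0.613 in the authors' deposited table).

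Transcripts of 1 gene often pointed apart. Of the 20 members with several transcripts, 9 had all of them lower and 11 had some in each direction. Of the 75 transcripts 63 were lower (84%, against 49% of all transcripts), a count that scaling to 1 total lowers to 57 of the 74 with a fold, and among the 12 higher ones the smallest p was 0.204 and the smallest adjusted p 0.54, so none of the upward transcripts passed any threshold used here. By class, 38 of 44 protein coding, 15 of 18 assembled, 7 of 8 retained intron and 3 of 5 nonsense-mediated decay transcripts were lower. The stacked plot shows the 11 genes whose transcripts split.

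**Figure D3:**
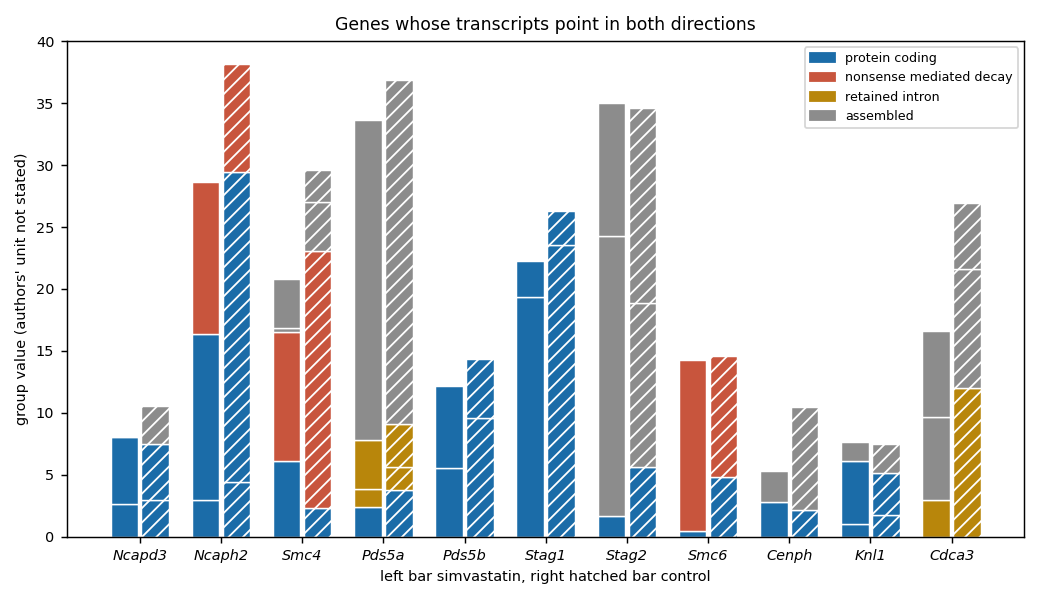
Group values of every transcript of the 11 genes with transcripts in both directions, stacked by gene; the left bar is simvastatin and the right, hatched bar is control, in the authors' unit, which is not stated, with colours for the transcript class. The bars of Stag2, Smc6 and Knl1 have nearly equal height in both groups (35.06 against 34.6 for Stag2) while their segments trade places, and the left bars of Smc4 and Cdca3 are the shorter ones.

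The number of transcripts listed for a gene went with its p-value. Of the 22 members with 1 transcript 13 were in the authors' call as lower (59.1%, against 6.92% of all genes with 1 transcript), and of the 20 with several 6 were (30%, against 3.87% of all genes with several). Their median log2 fold changes were closer to each other, -0.77 and -0.72 (-0.77 and -0.60 with gene sums), while the median p was 0.021 for the first and 0.224 for the second. The same was seen over all genes, where the median p was 0.112 for 4535 genes with 1 transcript and 0.32 for 3978 with several. The part of this split in the calls of single members was not tested.

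Genes that work with these complexes but carry other names lay mostly on the lower side too. Of 51 symbols listed as partners 36 were measured, of which 31 had the lower value (27 after scaling to 1 total), 5 passed the test downward and 0 upward (1.39% and 1.76% of all genes did), with a median log2 fold change of -0.77. The 5 SMC5/6 partners had a median of -0.11, or -0.41 with gene sums. Of these 5, 4 were lower, or 2 after scaling to 1 total. Top2a, the topoisomerase that untangles chromosomes alongside condensin, had 65.22 with simvastatin and 109.61 in control in the authors' deposited table and fell 1.68-fold (adjusted p = 0.042). Aurkb, the kinase of the passenger complex, had 15.05 with simvastatin and 31.34 in control in the authors' deposited table and fell 2.08-fold (adjusted p = 0.042), and its partner Birc5, for survivin, had 33.69 and 69.29 (2.06-fold lower, adjusted p = 0.082). All 4 passenger genes listed, with Cdca8 and Incenp, had the lower value in simvastatin cells. The gene sum of Incenp over its 3 transcripts was 8.47 with simvastatin and 14.63 in control, 1.73-fold lower.

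At the kinetochore, Bub1, a checkpoint kinase, fell 1.85-fold, with 11.36 in simvastatin cells and 21.04 in control cells (adjusted p = 0.049 in the authors' deposited table). Ska2, of the complex that tracks microtubule ends beside NDC80, had 9.71 with simvastatin and 17.97 in control in the authors' deposited table and fell 1.85-fold as well (adjusted p = 0.045). Of the 15 kinetochore partners measured 14 were lower (median -0.82), and 13 after scaling to 1 total. The exception was the checkpoint gene Bub3, with 19.11 with simvastatin and 14.87 in control (adjusted p = 0.979 in the authors' deposited table), whose gene sum was lower.

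The cohesin partners lay on both sides, with 6 of 9 lower, or 5 after scaling to 1 total. Rad21, the kleisin that closes the cohesin ring, fell 1.23-fold, with 48.99 in simvastatin cells and 60.2 in control cells (adjusted p = 0.037 in the authors' deposited table), too small a fold for the authors' call. The centromeric protectors Sgo1 and Sgol2a had 6.54 and 9.04 with simvastatin, against 11.75 and 15.44 in control, in the authors' deposited table (1.8-fold and 1.71-fold lower, adjusted p = 0.059 for both). The S phase acetyltransferase gene Esco2 had 4.57 with simvastatin and 8.09 in control in the authors' deposited table (1.77-fold lower, adjusted p = 0.135). On the other side stood Mau2 of the cohesin loader, with 7.29 and 3.72 with simvastatin and in control, Esco1, the acetyltransferase active outside S phase, with 2.33 and 1.19, and the release factor Wapl, with 13.85 and 10.7 (adjusted p = 0.319, 0.591 and 0.63 in the authors' deposited table). Over the 9 cohesin partners the median was -0.30, close to the -0.29 of the cohesin members.

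The authors also set their mouse result beside an outside signature of A375 cells, a human melanoma line, given 10 µM simvastatin. In this comparison of 158 genes, all with an adjusted p under 0.05 in the mouse cells, Ncapd2 had a z-score of -6.05 and Ncapg one of -3.53 in the authors' deposited table. These are the fifth and the sixteenth lowest by rank, and the lowest, -9.22, belongs to Top2a. The partner Rad21, also in this comparison, has a mouse log2 fold change of -0.55 there, 1.47-fold lower, in the authors' deposited table. Its leading transcript was 1.23-fold lower, and why these values differ is not known here. Of the 64 genes lower in the mouse cells, 46 had a z-score below 0, as did 68 of all 158 genes. The dose differs from that of the mouse cells, and the 2 members are there because of their mouse result.

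Promoter windows of 300 bases (250 before to 50 after the start) were matched in the RefSeq table by symbol for 36 of the 42 members, as 39 windows. Those of Smc4, Stag2, Spc24, Cdca2 and Incenp were among the members not matched. The CHR core TTTGAA, read on both strands, occurred in 18 of the 39 windows (46.2%), against 17.9% of all 32851 windows and 12.1% of the 7877 windows of measured genes. CCAAT occurred in 22 (56.4%), against 37.4% and 37.9%, and both were present in 12 (30.8%), against 6.95% and 5.05%. The E2F cores were found in 10 windows for TTCCCGC (25.6%, against 4.6% of all and 8.61% of measured windows) and in 6 for TTGGCGC (15.4%, against 2.45% and 4.53%). Such matches are letters in a window and do not show that a factor binds.

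The CHR core was present in 5 of 7 condensin genes with a window, in 2 of 6 cohesin genes, in 3 of 10 inner centromere genes and in 4 of 7 outer kinetochore genes. The other motifs were spread differently over these lists. In the same order, CCAAT was in 3, 3, 8 and 4 genes, TTCCCGC in 2, 3, 4 and 0, and TTGGCGC in 3, 3, 0 and 0. In the printed sequences the first base of the CHR core stands at -123 from the start in Ncapd2, at -30 in Ncapg and at -18 in Ncapg2, which are the 3 genes with a transcript that fell. The core is not particular to lower genes. Knl1, Smc6 and Ncapd3, on the higher side by leading transcript, hold it at 32, -199 and -249. In Ncapd3 that match lies in the window of a start site further inside the gene. The window at the beginning of Ncapd3 holds only a TTGGCGC match. Ncaph and Ncaph2, on the lower side, hold none. Ncapd2 has 3 CCAAT boxes, all on the opposite strand and therefore written as ATTGG, and Cdca8 has 4, the last of which overlaps its CHR core. Smc2 has a CHR core on the opposite strand, written TTCAAA, and a second that begins at 27 and runs past the end of the printed stretch. Smc3 has no match to any of the 4 motifs, whereas each other cohesin gene with a window has a match. The 2 cohesin genes with a CHR core are Cdca5 and Pds5b. The map of matches shows all 39 windows.

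**Figure D4:**
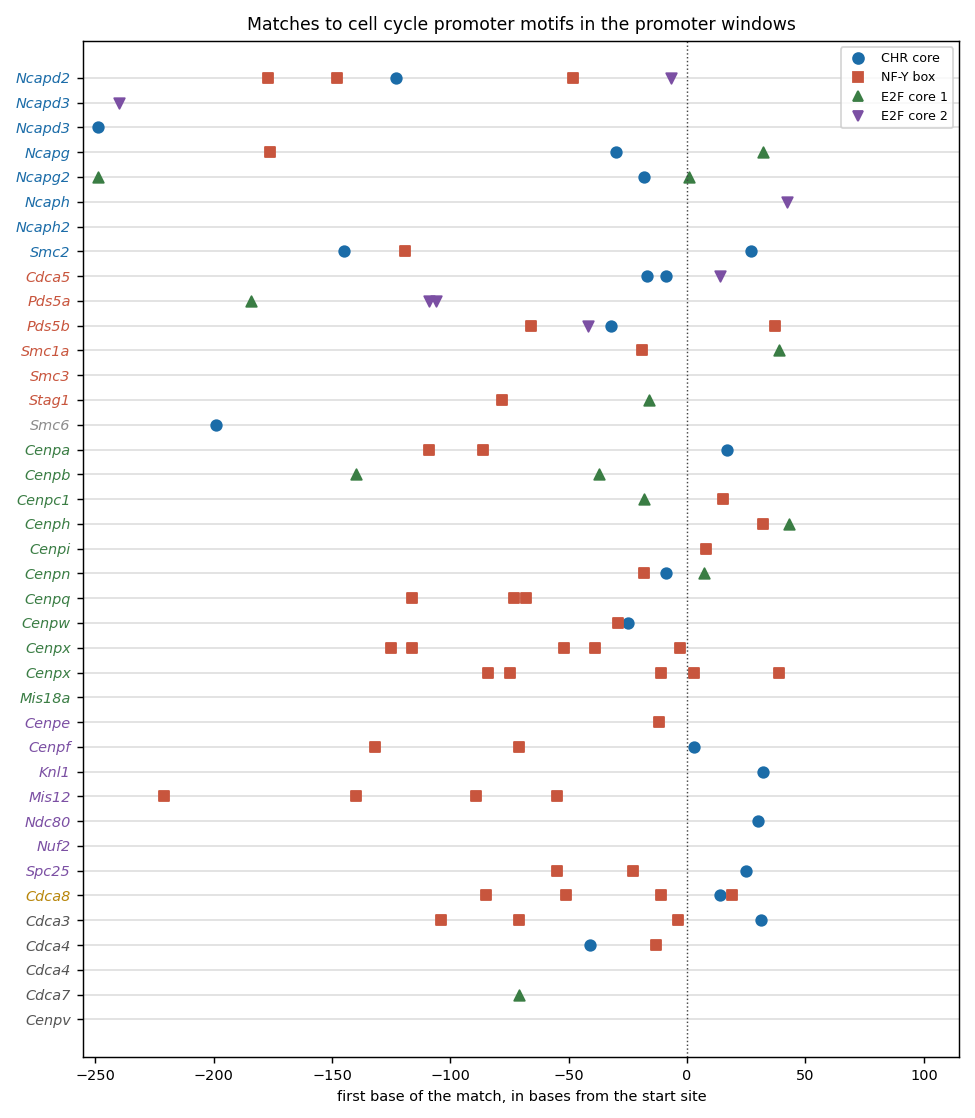
Position of each match to the 4 motifs in the 39 promoter windows, in bases from the RefSeq start site (dotted line), with gene names coloured by complex as in the plot of summed values; genes with several start sites have several rows. CHR cores (circles) appear in 18 windows, and Ncaph2, Smc3, Mis18a, Nuf2, Cenpv and 1 of the Cdca4 windows hold no match.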

How the data were processed

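Stranded libraries of total RNA from 6 B16.F10 samples had been sequenced, per the labels' protocols, and titles gave the groups. The submitters' processing notes name HISAT2 2.0.5, StringTie and the build GRCm38 (mm10). For the counting, its use of strand, the split of reads between transcripts, the low value filter and the test, no method was given in these sources. The main table holds, per the file headers, 1 signal value per group, a signed fold ratio, a p-value and an adjusted p-value to 3 decimals and a yes or no call for each transcript, all deposited by the authors. The p-values measure the spread between the samples only as far as the description as biological replicates holds. The A375 table holds, per the file headers, the authors' log2 fold change per gene and a z-score, used here as a score.

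No test was refitted. Calls use the authors' adjusted p under 0.05 as printed, a gene stands for its transcript of highest mean value, and log2 fold changes were computed from the authors' folds. The adjusted p printed as 0.05, which 38 transcripts have, is no call. Members, lists and motifs were chosen with earlier results of these data known. All members enter the counts and medians, and 1 member is not reported here by itself. Full values go to the members past the threshold, the 2 of highest listed value in each list (an order used only to choose what to print, since values of different genes are not comparable), the largest fold each way and genes with transcripts in both directions, of which at least 1 is called; further members were given values after they were seen. Of the partner genes, those past the threshold are named by rule, and the others were named after their values were seen. Gene positions and transcript classes come from GENCODE on GRCm38, and promoters from RefSeq (GRCm38.p6). The Benjamini-Hochberg adjustment used as an alternative was tested on simulated data. Python 3.11.15, pandas 2.3.3, numpy 2.4.6 and matplotlib 3.10.9 were used. Alternatives were other thresholds, sums, scaling, Ensembl transcripts only, a pseudocount of 1 and a mean value of at least 1.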

Additional observations from a re-analysis of the deposited data

How the results depend on the processing

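The tables used here hold 1 value per group, so no replicate could be left out and no SD computed, and what depth limits is unknown. No paired analysis was possible because the values used here carry no replicate. The count of 2 member genes called lower became 1 (Ncapg) with Ensembl transcripts only, 3 with an adjusted p of 0.05 or less and 3 by any transcript. It was 11 at an adjusted p under 0.1, 19 by the authors' own call and 8 with a Benjamini-Hochberg adjustment recomputed from p-values rounded to 3 decimals. The count of 3 transcripts called lower became 4, 12, 22 and 9 at 0.05 or less, under 0.1, by the authors' call and after recomputation. The counts of higher genes and transcripts were 0 under each of these. For the recomputed adjustment, for 0.05 or less and for Ensembl transcripts only, no share over all genes or transcripts is given here. The same holds for transcripts under 0.1, so the counts under these settings have no background to be set against. Scaling both groups to 1 total moved the median log2 fold change of condensin to -0.55, of cohesin to -0.089, of the inner centromere to -0.67, of the outer kinetochore to -0.54 and of all members to -0.57. Ensembl transcripts only gave -0.44 for cohesin and -0.74 for the inner centromere, through the transcripts left out. A minimum mean value of 1 and a pseudocount of 1 moved none of these 5 medians by more than 0.1. No called gene changed direction under the alternatives run for single genes. Among the other members, Ncapd3 and Smc6 turned to -0.39 and -0.03 with gene sums, and Cenpv, Cenpx and Pds5a to 0.03, 0.02 and 0.10 after scaling.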

Other observations

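In the authors' enrichment tables, members of these complexes stand, by the gene identifiers listed, under 27 of the 67 distinct terms of lower genes and under 0 of the 80 terms of higher genes. Some terms list fewer identifiers than their stated count, such as nucleus with 20 of 353, so members under such terms can be missed. The term mitotic chromosome condensation is made up of members only, with Cdca5, Ncapd2, Ncapg, Smc2 and Smc4 as its 5 genes. These terms were built on the authors' own call, so they repeat the values above and are not a second measurement. None of the 397 interaction links and none of the 46 entries of the aggressiveness table, in the authors' deposited tables, holds a member. Which genes were entered for the links is not known here, so this count does not show that the members lack interactions.

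The 7 melanocyte markers included to check the cell type lay mostly on the side opposite to the chromosome genes. By leading transcript, 6 of these 7 markers were higher in the authors' deposited values with simvastatin than in control, and 0 passed an adjusted p of 0.05. Pmel, which forms the fibrils of melanosomes, had 2750.78 with simvastatin and 1853.34 in control (adjusted p = 0.109 in the authors' deposited table). Sox10, a transcription factor of the lineage, was the exception by leading transcript, with 16.71 with simvastatin and 23.68 in control (adjusted p = 0.907 in the authors' deposited table). By gene sum the log2 ratio of Sox10 was 0.03, and the lower gene was Tyr, the tyrosinase gene, at -0.08.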
